A study of Homo sapiens with 18 samples.

Results

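Genes of blood coagulation and plasminogen activation were followed in the human monocytic leukaemia line THP-1. They were F3, THBD, TFPI, TFPI2, F13A1, PLAU, PLAUR, SERPINB2 and THBS1. They were chosen by symbol and make up 9 of the 57500 genes counted. Each symbol matched 1 Ensembl gene. All libraries came from THP-1 cells carrying a lentiviral short hairpin RNA. The shNT line carried a hairpin without a target, the shNR4A2 line a hairpin against NR4A2 and the shNR4A3 line a hairpin against NR4A3, which encode nuclear receptors of the NR4A family. Each line was rested for 2 h at 750000 cells per ml in buffered medium and left without LPS (control) or treated with LPS at 2.5 µg/ml for a further 2 h. The 6 groups held 3 libraries each, 18 in all, and the study describes 3 independent experiments. Each target was represented by a single line, so that the effect of the hairpin and other differences between lines cannot be told apart. Whether a line was a single clone is not given in the sources used here.

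Coagulation on monocytes starts with tissue factor, the product of F3, which binds factor VII on the cell surface and leads to thrombin. TFPI blocks this step, and thrombomodulin, encoded by THBD, turns thrombin towards activation of protein C, an anticoagulant. Fibrin is crosslinked by factor XIII, whose A chain is encoded by F13A1 and is made by monocytes and macrophages. Fibrin is dissolved by plasmin, which urokinase (PLAU) releases from plasminogen on its receptor (PLAUR), and SERPINB2 (plasminogen activator inhibitor type 2) inhibits urokinase. TFPI2 is a Kunitz-type inhibitor of plasmin and other serine proteases. Thrombospondin 1, encoded by THBS1, is an adhesive glycoprotein that platelets and macrophages release.

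Between 16171161 and 23929138 reads were counted on genes per library, with a median of 19639071. Levels are given as TPM, a measure of relative transcript abundance in which the count per base of the gene's merged exons is scaled so that all libraries have an equal sum. The hairpin targets were measured first. After LPS, NR4A2 stood at 62.2, 74.7 and 51.3 TPM in shNT cells and at 20.5, 28.3 and 14.8 TPM in shNR4A2 cells, with a log2 fold change of -1.52 (adjusted p = 0.00265). NR4A3 stood at 30.9, 32.3 and 31.9 TPM in shNT cells with LPS and at 17.0, 18.2 and 16.7 TPM in shNR4A3 cells, with a log2 fold change of -0.82 (adjusted p = 0.000556). Both targets were lower in their own line without overlap with shNT. The marker genes of monocytes and THP-1 cells summed to between 4977 and 7255 TPM, and ELANE was the most abundant of the 11 in every library. Of the 6 endothelial markers, CDH5, CLDN5, TEK and VWF had a mean under 1 TPM in every group, with single libraries of TEK up to 1.23 TPM, whereas PECAM1 stood between 114 and 289 TPM and KDR reached 2.49 TPM. A group mean under 1 TPM was also found for 3 of the 6 platelet markers, PF4, PPBP and TUBB1, whereas GP9 reached 10.3 TPM, GP1BA 3.35 TPM and ITGA2B 2.85 TPM. The same held for the means of 3 of the 6 macrophage markers, CD163 (up to 1.13 TPM in a single library), MRC1 and MSR1, whereas CD209 reached 59.3 TPM, APOE 39.6 TPM and MARCO 3.79 TPM. In bulk RNA, fewer cells of a type and less RNA per cell cannot be told apart.

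In shNT cells without LPS the order of the levels was THBD, F3, PLAU, PLAUR, F13A1, SERPINB2, THBS1, TFPI and TFPI2. THBD led with 284 ± 15.7 TPM (SD, n = 3), followed by F3 with 192 ± 26.1 TPM. PLAU (62.1 ± 10.9 TPM) and PLAUR (46.0 ± 9.46 TPM) overlapped between libraries, as did SERPINB2 (9.0 ± 2.42 TPM) and THBS1 (6.37 ± 2.86 TPM). F13A1 stood between these pairs at 24.5 ± 2.40 TPM. TFPI stood at 3.32 ± 0.403 TPM, and TFPI2 had no count in these 3 libraries, which allows up to 3 counts in each. After LPS, F3 was the most abundant of the 9 in shNT cells, and THBD overlapped with THBS1. In shNR4A3 cells with LPS, PLAU and F3 overlapped at the head of the order.

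**Figure D1:**
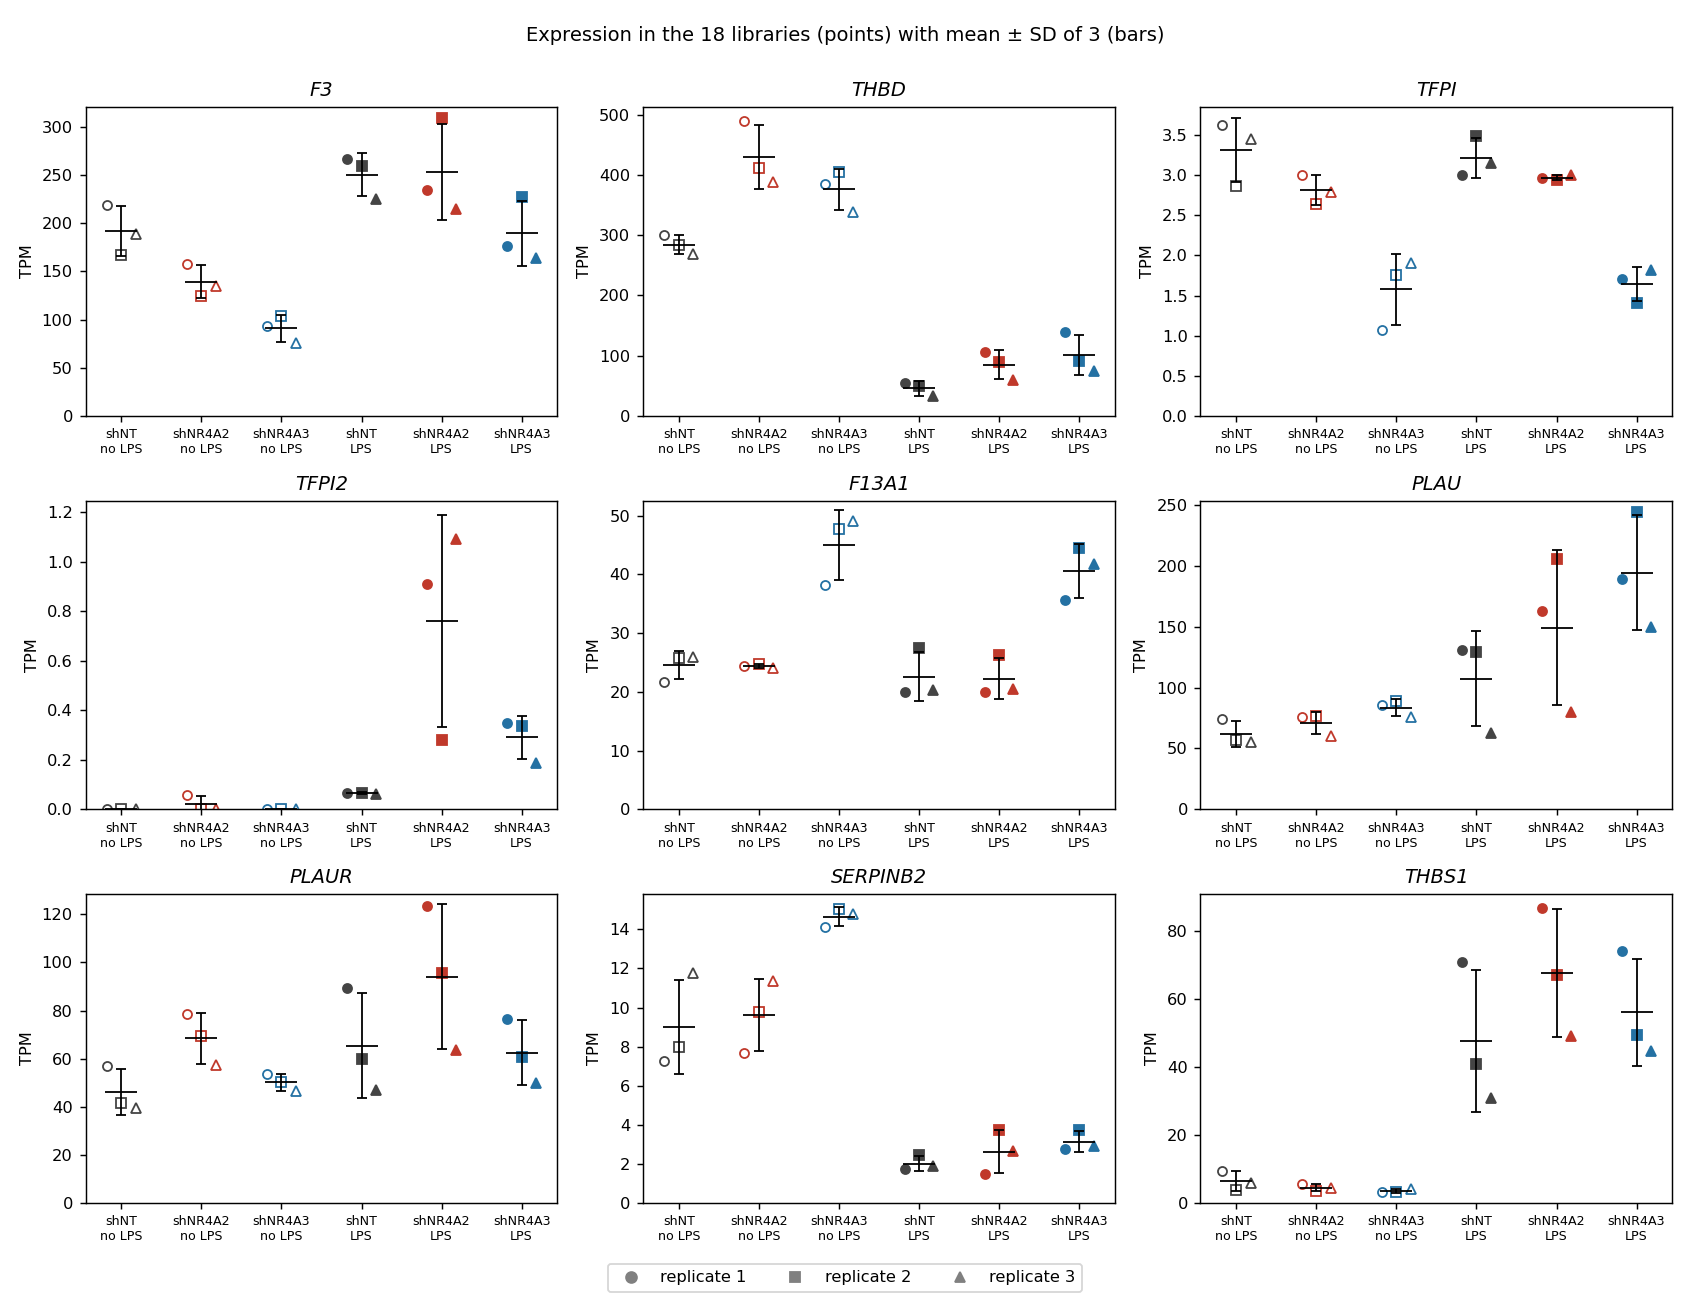
TPM (y axis, from 0) of the 9 genes in the 6 groups (x axis, open symbols without LPS, filled symbols with LPS). Points are libraries, with the shape giving the replicate number, and bars are the mean ± SD of 3. THBD and SERPINB2 were lower with LPS in every line and THBS1 was higher, without overlap, and F13A1 was higher in shNR4A3 cells than in the other lines.

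F3 (ENSG00000117525) lies on chromosome 1 on the minus strand (chr1:94529225-94541800, GRCh38). SERPINB2 (ENSG00000197632) lies on chromosome 18 on the plus strand (chr18:63871692-63903890), and 19.9% of its exon bases are shared with SERPINB10 on the same strand. THBS1 (ENSG00000137801) lies on chromosome 15 on the plus strand (chr15:39581079-39599466), with 7.56% of exon bases shared with antisense genes. Promoter sequence from RefSeq (GRCh38.p14, 250 bases before to 50 after the start) was found for 8 of the 9 genes, in 9 windows. THBD had no entry. The windows were searched on both strands for TGANTCA (AP-1), AAAGGTCA (the NBRE of the NR4A receptors), GCGNGGGCG (EGR1) and the kappaB motif. The promoters of F3, SERPINB2 and THBS1 are shown because they stand for an initiator of coagulation that rose with LPS, an inhibitor of fibrinolysis that fell and the gene with the largest rise among those with enough counts to be tested. Each is printed 5′ to 3′ on the gene's strand, with the bases that lie in exons of the gene left out and the motif matches in capitals.
F3, chr1:94541801-94542009, minus strand: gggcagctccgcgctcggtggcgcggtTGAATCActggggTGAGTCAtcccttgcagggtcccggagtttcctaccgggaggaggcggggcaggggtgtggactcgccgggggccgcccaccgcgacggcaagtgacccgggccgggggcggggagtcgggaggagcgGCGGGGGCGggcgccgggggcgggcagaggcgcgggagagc
SERPINB2, chr18:63887455-63887699, plus strand: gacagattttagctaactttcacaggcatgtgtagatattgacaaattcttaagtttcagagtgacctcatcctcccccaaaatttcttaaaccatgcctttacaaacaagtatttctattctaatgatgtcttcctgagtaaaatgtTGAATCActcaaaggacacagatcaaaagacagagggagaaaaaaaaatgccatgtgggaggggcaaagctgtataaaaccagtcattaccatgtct
THBS1, chr15:39580829-39581078, plus strand: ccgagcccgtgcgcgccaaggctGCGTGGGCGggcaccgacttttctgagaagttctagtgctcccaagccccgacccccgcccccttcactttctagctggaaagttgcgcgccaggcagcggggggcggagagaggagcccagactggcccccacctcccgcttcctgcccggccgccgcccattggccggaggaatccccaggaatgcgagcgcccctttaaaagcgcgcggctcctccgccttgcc
The stretch of SERPINB2 lies between exons of the deposited gene, which starts further upstream.

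F3 held 2 matches to the AP-1 letters, TGAATCA and TGAGTCA, and a match to the EGR1 letters. SERPINB2 held 1 AP-1 match, TGAATCA. THBS1 held no AP-1 match and 1 EGR1 match, GCGTGGGCG. Of the 8 genes with a window, 4 held an AP-1 match, namely F3, PLAUR, SERPINB2 and TFPI2, beside 7.71% of all 35116 promoter windows of this length. The PLAUR match was TGAGTCA at chr19:43670349-43670355 and the TFPI2 match TGAATCA at chr7:93890834-93890840. EGR1 letters were found in F3, PLAUR, TFPI2 and THBS1, beside 9.43% of all windows. The kappaB letters occurred in TFPI2 among these genes, as GGGGAATTCC, and in 5.91% of all windows. AAAGGTCA was in none of the 9 windows and in 1.22% of all. A match is a run of letters and not a measured binding site.

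The first question was how LPS moved these genes in each line. In shNT cells LPS raised F3, PLAU, PLAUR and THBS1 and lowered THBD and SERPINB2, while F13A1 and TFPI did not pass the test. Thus 6 of the 8 genes that passed the filter on low counts were called by edgeR's quasi-likelihood test at an adjusted p under 0.05, against 24.9% of all genes tested (11.6% higher and 13.3% lower). The direction and the count, 4 higher and 2 lower, were the same in shNR4A2 cells, where 19.3% of all genes were called (9.23% higher and 10.1% lower), and in shNR4A3 cells, where 28.1% were (13.1% higher and 15% lower). With a change of at least 2-fold as a further limit, 3 genes were called in shNT cells, THBD, SERPINB2 and THBS1, against 7.56% of all genes. In shNR4A2 and shNR4A3 cells 5 genes passed this limit, THBD, SERPINB2, THBS1, F3 and PLAU, against 8.76% and 10.3% of all genes. The median log2 fold change of the 8 was 0.39 in shNT cells, 0.54 in shNR4A2 cells and 0.43 in shNR4A3 cells, beside -0.01, -0.02 and -0.01 over all genes. Fold changes are on the scale of TMM-normalized counts, on which the median gene does not move. On the TPM scale the median gene with at least 1 TPM was lower with LPS by a log2 of 0.23 in shNT cells, so TPM ratios lie below the fold changes.

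THBS1 had the largest rise with LPS in each line among the 8 genes that passed the filter on low counts. Its TPM was 9.46, 3.80 and 5.86 in shNT control libraries and 71.0, 41.0 and 30.9 after LPS. In shNR4A2 cells it went from 5.48, 3.46 and 4.29 TPM to 86.7, 66.9 and 49.2 TPM. In shNR4A3 cells it went from 3.03, 3.16 and 3.98 TPM to 74.1, 49.4 and 44.8 TPM. Groups with and without LPS did not overlap in any line, and replicate 1 was the highest of each LPS group. With LPS the log2 fold change was 3.11 (SE 0.306, adjusted p = 4.34e-06) in shNT cells, 4.21 (SE 0.235, adjusted p = 6.63e-08) in shNR4A2 cells and 4.28 (SE 0.222, adjusted p = 1.43e-07) in shNR4A3 cells.

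THBD (ENSG00000178726, chr20:23045633-23049741, minus strand) fell in every line. It stood at 300, 285 and 269 TPM in shNT control libraries and at 55.0, 49.4 and 32.2 TPM after LPS, a 5.40-fold decrease (log2 fold change -2.43, SE 0.149, adjusted p = 2.69e-08). In shNR4A2 cells it went from 490, 411 and 389 TPM to 107, 90.0 and 58.9 TPM, a 4.19-fold decrease (adjusted p = 9.03e-06). In shNR4A3 cells it went from 386, 405 and 338 TPM to 139, 90.2 and 74.7 TPM, a 3.15-fold decrease (adjusted p = 0.000125). Every LPS library lay far below every control library, and replicate 3 was the lowest of each LPS group.

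F3 rose by less. In shNT cells it went from 219, 168 and 189 TPM to 267, 259 and 226 TPM, and its log2 fold change was 0.60 (SE 0.10, adjusted p = 0.000528). In shNR4A2 cells it went from 158, 125 and 135 TPM to 235, 309 and 214 TPM, with a log2 fold change of 1.12 (SE 0.137, adjusted p = 8.99e-05). In shNR4A3 cells it went from 93.6, 104 and 75.7 TPM to 177, 227 and 164 TPM, with a log2 fold change of 1.28 (SE 0.127, adjusted p = 2.72e-05). The groups with and without LPS did not overlap, and the control levels were lowest in shNR4A3 cells.

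PLAU and its receptor both rose with LPS. PLAU went from 74.6, 56.6 and 55.1 TPM to 131, 129 and 62.4 TPM in shNT cells, where replicate 3 with LPS lay within the control range. LPS gave a log2 fold change of 1.00 (SE 0.211, adjusted p = 0.00317) in shNT cells, 1.32 (SE 0.248, adjusted p = 0.00229) in shNR4A2 cells and 1.44 (SE 0.141, adjusted p = 2.44e-05) in shNR4A3 cells. PLAU (ENSG00000122861, chr10:73909177-73917497, plus strand) shares 31.1% of its exon bases with C10orf55 on the opposite strand, and the strand setting of the counting is not given in the sources used here.

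PLAUR (ENSG00000011422, chr19:43646095-43670547, minus strand) went from 56.9, 41.6 and 39.6 TPM to 89.3, 60.0 and 46.7 TPM in shNT cells. The groups overlapped in every line, although the LPS library was the higher in 3 of 3 replicates of each line. In shNT cells its TPM with LPS was 1.57, 1.44 and 1.18 times that of the control with the same replicate number. Pairing by number did not hold for every replicate in this comparison, as described below. The log2 fold change was 0.72 (SE 0.195, adjusted p = 0.0150) in shNT cells, 0.73 (SE 0.211, adjusted p = 0.0295) in shNR4A2 cells and 0.55 (SE 0.154, adjusted p = 0.0208) in shNR4A3 cells. These calls were not stable. In shNT cells the call was lost without control replicate 2 or 3 (adjusted p = 0.0640 to 0.0700) and with DESeq2 (adjusted p = 0.114). In shNR4A2 cells it was lost without control replicate 2 or 3 or LPS replicate 1 (adjusted p = 0.10 to 0.133). The same 3 libraries of shNR4A3 cells decided its call there (adjusted p = 0.0690 to 0.0842), as did a fit over all 18 libraries (adjusted p = 0.104).

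SERPINB2, an inhibitor of urokinase, fell with LPS while PLAU rose. It went from 7.29, 7.96 and 11.8 TPM to 1.71, 2.43 and 1.87 TPM in shNT cells, from 7.67, 9.78 and 11.4 TPM to 1.47, 3.71 and 2.67 TPM in shNR4A2 cells and from 14.1, 15.1 and 14.8 TPM to 2.76, 3.73 and 2.92 TPM in shNR4A3 cells. No LPS library reached a control library. The decrease was 3.84-fold in shNT cells (log2 fold change -1.94, SE 0.227, adjusted p = 2.31e-05), 3.05-fold in shNR4A2 cells (adjusted p = 0.00126) and 4.01-fold in shNR4A3 cells (adjusted p = 6.65e-06). Between 20 and 55 counts of SERPINB2 remained per LPS library. SERPINE2, which encodes another inhibitor of urokinase, rose with LPS in each line, as given below.

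TFPI and F13A1 did not pass the test with LPS in any line. F13A1 (ENSG00000124491, chr6:6144085-6321013, minus strand) had a log2 fold change of 0.09 in the shNT line, with a 95% confidence interval of -0.17 to 0.36, although its mean TPM was lower with LPS (22.6 against 24.5). TFPI (ENSG00000003436, chr2:187464230-187565760, minus strand) had a log2 fold change of 0.17 in the shNT line, with an interval of -0.11 to 0.46, and a mean TPM of 3.22 with LPS against 3.32 without. For both genes the sign in shNT cells thus depends on the scale. In shNR4A2 cells the interval for TFPI ran from 0.0012 to 0.69 (adjusted p = 0.156).

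TFPI2 (ENSG00000105825, chr7:93885397-93890991, minus strand) shares 4.62% of its exon bases with genes on the opposite strand and was too low for the filter in each comparison. Of the 9 libraries without LPS, shNR4A2 replicate 1 had 1 count and the other 8 had none. With LPS every library had a count: 1, 1 and 1 in shNT cells, 12, 4 and 17 in shNR4A2 cells and 5, 4 and 3 in shNR4A3 cells. Its highest level was 1.09 TPM. Without the filter, edgeR called it with LPS in both knockdown lines (adjusted p = 3.02e-06 for shNR4A2 and 0.0211 for shNR4A3) but not in shNT (adjusted p = 0.497), and DESeq2 called it in shNR4A2 cells (adjusted p = 0.00241). Between the LPS-treated lines, TFPI2 was called higher in shNR4A2 than in shNT cells by DESeq2 (adjusted p = 0.0240) and by edgeR without the filter (adjusted p = 0.000787). With the filter TFPI2 was tested when any shNT LPS library was left out, and it was then not called (adjusted p = 0.0895 to 0.103), and without shNR4A2 LPS replicate 2 it was called (adjusted p = 0.00531). Without the filter, edgeR did not call TFPI2 with LPS in shNR4A3 against shNT cells (adjusted p = 0.496). Nor did it between the knockdown lines with LPS (adjusted p = 0.282). The difference of its LPS response from that of shNT cells was not called for shNR4A2 (adjusted p = 0.99985) or shNR4A3 cells (adjusted p = 0.99998).

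**Figure D2:**
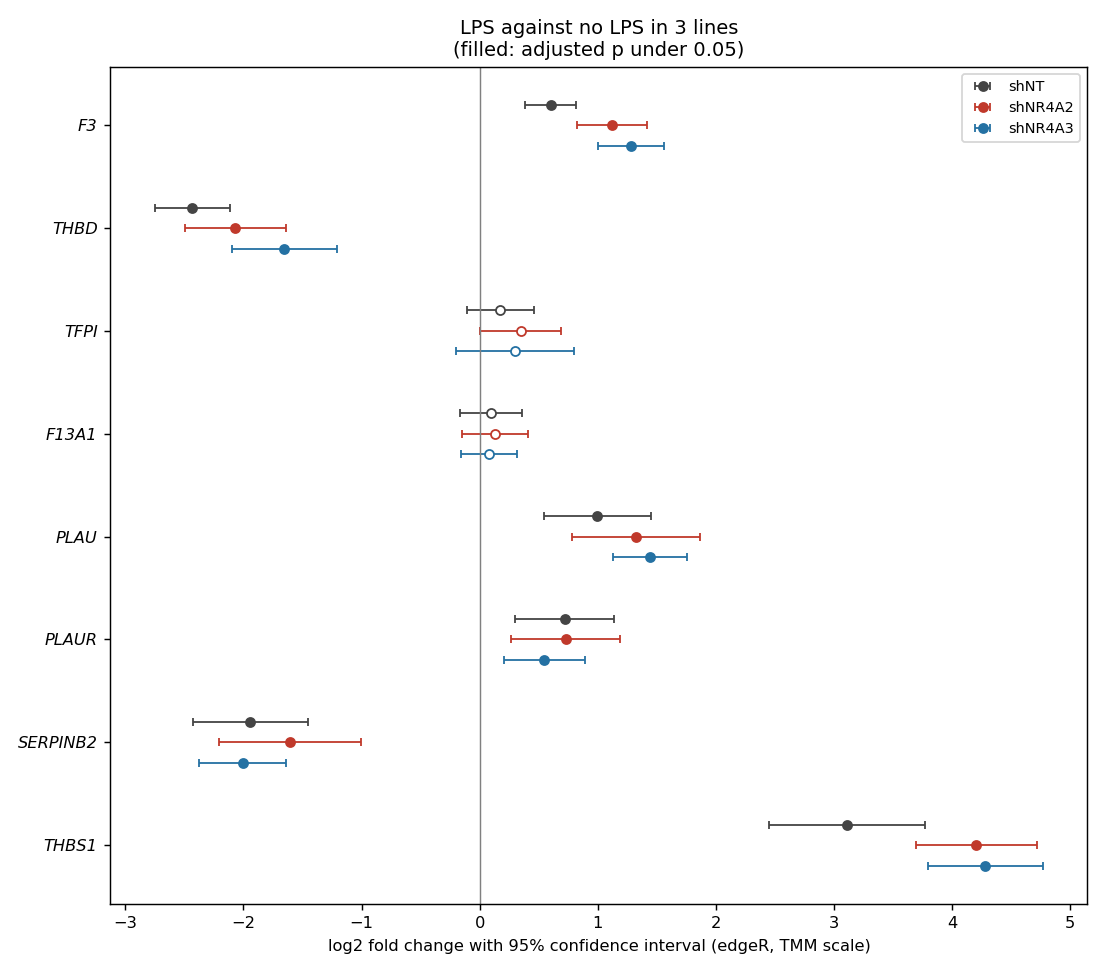
Log2 fold change with LPS (x axis, TMM scale) of the 8 genes that passed the filter (y axis) in the 3 lines. Bars are 95% confidence intervals and filled points have an adjusted p under 0.05; THBS1, F3, PLAU and PLAUR lie above 0 and THBD and SERPINB2 below 0 in every line.

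Whether the response to LPS differed between lines was tested by the interaction of line and LPS over 12 libraries. None of the 8 genes was called for shNR4A2 against shNT or for shNR4A3 against shNT, and 0% of all genes were called in either test. Without shNR4A2 LPS replicate 2 there were 8 genes called for shNR4A2, and without shNR4A3 LPS replicate 2 there were 44 for shNR4A3, none of them among the 8. At an unadjusted p under 0.05 there were 2 of the 8 genes and 365 of 16674 genes for shNR4A2, and 3 of the 8 genes and 824 of 16428 genes for shNR4A3. DESeq2 called none of the 8 and 2 and 8 genes in all. The genes with an unadjusted p under 0.05 were F3 and THBS1 for shNR4A2, and F3, THBD and THBS1 for shNR4A3. F3 had a difference of the log2 responses of 0.68 for shNR4A3 (95% confidence interval 0.31 to 1.05, adjusted p = 0.697). THBS1 had differences of 1.10 (0.14 to 2.05) and 1.17 (0.20 to 2.13), and THBD had one of 0.78 (0.17 to 1.38) for shNR4A3. These calls depended on the processing. Without the filter on low counts edgeR called THBS1 for shNR4A2 (adjusted p = 4.57e-06) and F3, THBD and THBS1 for shNR4A3 (adjusted p = 0.000883, 1.46e-05 and 1.67e-09), and with the replicate block it called F3 for shNR4A3 (adjusted p = 0.0379). For these interactions, pairing by replicate number did not hold for every replicate, as described below.

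The second question was how each knockdown line differed from shNT cells. The 4 comparisons share their shNT libraries in pairs, and values are given side by side. Without LPS, shNR4A3 cells differed in 6 of the 8 genes, with F13A1, SERPINB2, PLAU and THBD higher and F3 and TFPI lower, against 7.23% of all genes called (3.91% higher and 3.32% lower). With LPS, F13A1 and THBD were higher and TFPI lower, 3 of 8, against 6.45% of all genes (3.99% higher and 2.46% lower). In shNR4A2 cells, THBD was higher and F3 lower without LPS, 2 of 8, against 6.45% of all genes (3.63% higher and 2.82% lower). With LPS, THBD alone was higher, 1 of 8, against 6.96% of all genes (4.31% higher and 2.65% lower). At least 2-fold, 2 and 1 of the 8 were called in shNR4A3 cells without and with LPS, against 1.84% and 2.25% of all genes, and 0 and 0 in shNR4A2 cells, against 2.18% and 2.49%. The median log2 fold change of the 8 was 0.31 and 0.50 in shNR4A3 cells without and with LPS, and 0.05 and 0.48 in shNR4A2 cells, beside medians over all genes between -0.01 and 0.00. With the replicate number as a block, the counts were 7 and 7 of 8 in shNR4A3 cells without and with LPS, against 14.8% and 21.8% of all genes, and 4 and 4 of 8 in shNR4A2 cells, against 23.6% and 28.1% of all genes.

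F3 was lower in shNR4A3 cells without LPS, at 93.6, 104 and 75.7 TPM against 219, 168 and 189 TPM in shNT cells. The groups lay apart, with a log2 fold change of -1.03 (SE 0.119, adjusted p = 0.000178), a 2.04-fold decrease. With LPS the F3 values of 177, 227 and 164 TPM overlapped those of shNT cells by 1 library (log2 fold change -0.35, SE 0.106, adjusted p = 0.0824). With the replicate block the adjusted p was 0.00237, with DESeq2 it was 0.0366, and without LPS replicate 2 of shNR4A3 cells it was 0.0112. In shNR4A2 cells without LPS, F3 stood at 158, 125 and 135 TPM, all below shNT cells, with a log2 fold change of -0.46 (SE 0.121, adjusted p = 0.0445). That call was lost when any of 5 of the 6 libraries was left out, all but shNR4A2 replicate 1 (adjusted p = 0.0556 to 0.177). With LPS the shNR4A2 and shNT values of F3 overlapped, and the log2 fold change was 0.06 with an interval of -0.19 to 0.31. F3 was the higher in shNR4A2 cells when the 2 knockdown lines were compared without LPS (log2 fold change 0.57, SE 0.128, adjusted p = 0.0305), a call lost without replicate 1 or 3 of either line (adjusted p = 0.0522 to 0.155).

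THBD was higher in both knockdown lines. Without LPS it stood at 490, 411 and 389 TPM in shNR4A2 cells and at 386, 405 and 338 TPM in shNR4A3 cells, all above the 300, 285 and 269 TPM of shNT cells. The log2 fold change was 0.60 (SE 0.113, adjusted p = 0.00918) in shNR4A2 cells and 0.45 (SE 0.0935, adjusted p = 0.0104) in shNR4A3 cells. After LPS it was 0.97 (SE 0.231, adjusted p = 0.0381) and 1.23 (SE 0.247, adjusted p = 0.0184), and every LPS-treated library of the knockdown lines exceeded every LPS-treated shNT library. The adjusted p rose to 0.0507 without shNT control replicate 3 for shNR4A2 cells without LPS. It rose to between 0.0615 and 0.116 without any shNT LPS replicate or shNR4A2 LPS replicate 1, and to 0.0587 and 0.0652 for shNR4A3 cells with LPS without shNT LPS replicate 2 or 3. In a fit over all 18 libraries the calls without LPS were lost for shNR4A2 (adjusted p = 0.113) and shNR4A3 cells (adjusted p = 0.298). Between the knockdown lines THBD was not called, with a log2 difference of 0.15 (-0.10 to 0.40) without LPS and -0.26 (-0.88 to 0.36) with LPS. With the replicate block it was called lower in shNR4A2 cells with LPS (log2 difference -0.25, adjusted p = 0.0202), with 3 of 3 replicates lower.

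F13A1 was higher in shNR4A3 cells alone. It stood at 38.2, 47.8 and 49.1 TPM without LPS and at 35.6, 44.6 and 41.7 TPM with LPS, above every library of the other lines. Against shNT the log2 fold change was 0.92 (SE 0.113, adjusted p = 0.000270) without LPS and 0.91 (SE 0.118, adjusted p = 0.00238) with LPS. In shNR4A2 cells it stood at 24.5, 24.7 and 24.0 TPM without LPS and at 20.0, 26.3 and 20.4 TPM with LPS, with intervals of the log2 fold change against shNT of -0.26 to 0.25 and -0.26 to 0.33. The difference between the knockdown lines was itself tested, and F13A1 was lower in shNR4A2 cells, with log2 differences of -0.93 without LPS (adjusted p = 0.000857) and -0.87 with LPS (adjusted p = 0.00604). These 2 comparisons called 2 of the 8 genes each, against 3.08% of all genes without LPS (1.94% higher and 1.14% lower in shNR4A2 cells) and 2.33% with LPS (1.27% higher and 1.06% lower). With the 2-fold limit 0 of the 8 genes remained in either, against 1.37% and 0.959% of all genes. The other called genes were F3 without LPS and TFPI with LPS.

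TFPI was lower in shNR4A3 cells, at 1.07, 1.76 and 1.90 TPM without LPS and 1.70, 1.41 and 1.82 TPM with LPS. In shNT cells it stood at 3.63, 2.86 and 3.46 TPM and at 3.00, 3.49 and 3.16 TPM. No library of one line reached the other. Its log2 fold change was -1.03 (SE 0.193, adjusted p = 0.00531) without LPS and -0.90 (SE 0.154, adjusted p = 0.00914) with LPS. These levels rested on 63 to 127 counts per library in shNR4A3 cells. Against shNR4A2 cells with LPS, TFPI was lower in shNR4A3 cells (log2 difference 0.85, SE 0.165, adjusted p = 0.0385), but the call was lost when any of the 6 libraries was left out (adjusted p = 0.0646 to 0.122).

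**Figure D3:**
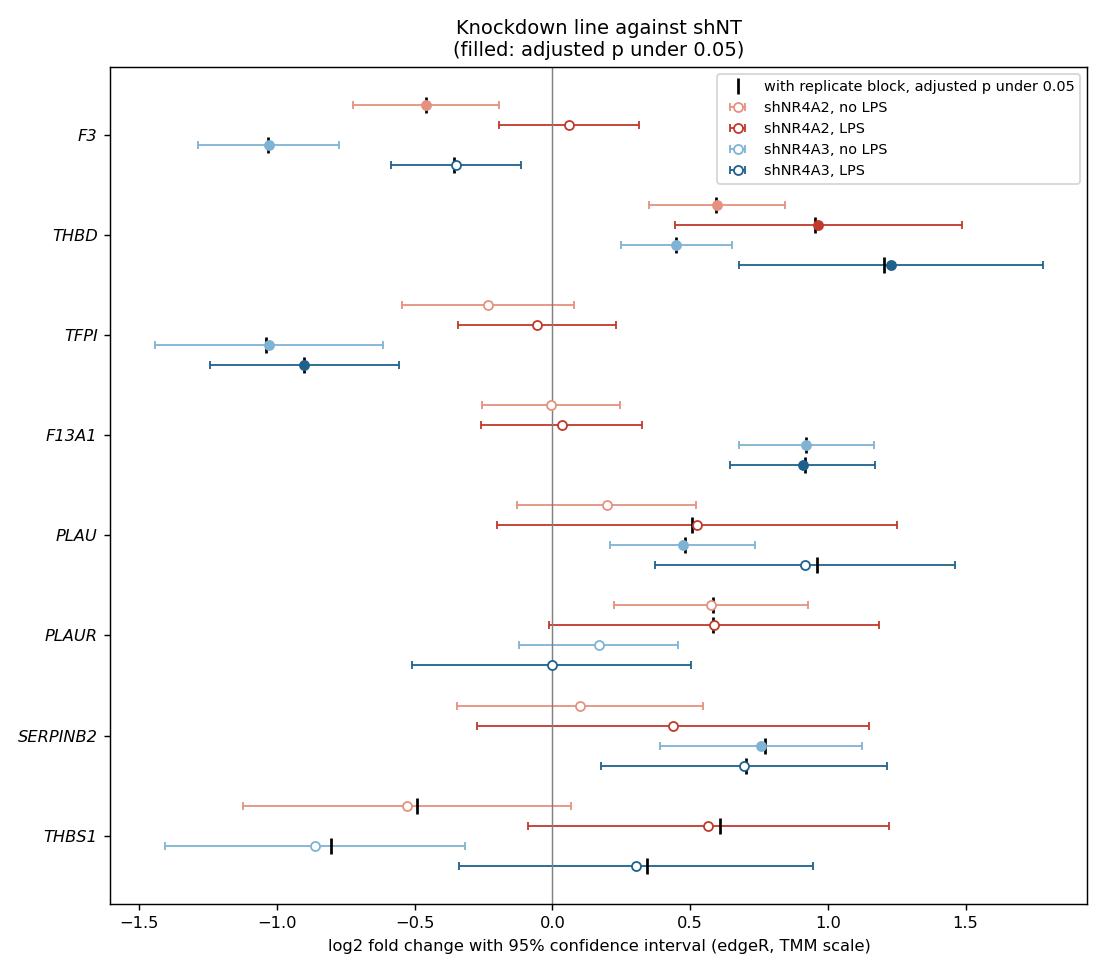
Log2 fold change of each knockdown line against shNT (x axis, TMM scale) for 8 genes (y axis), without and with LPS. Bars are 95% confidence intervals, filled points have an adjusted p under 0.05, and black ticks mark values whose adjusted p is under 0.05 with the replicate number as a block; F13A1 lies near 0 in shNR4A2 cells and near 0.9 in shNR4A3 cells.

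Calls of PLAU, PLAUR, SERPINB2 and THBS1 against shNT changed with the replicate block. PLAU with LPS stood at 190, 244 and 150 TPM in shNR4A3 cells, at 163, 206 and 80.0 TPM in shNR4A2 cells and at 131, 129 and 62.4 TPM in shNT cells. Replicate 3 was the lowest in each line. Within a replicate the ratio to shNT was 1.45, 1.89 and 2.41 in shNR4A3 cells and 1.24, 1.59 and 1.28 in shNR4A2 cells, higher in 3 of 3 replicates each. For shNR4A3 cells with LPS the log2 fold change of PLAU was 0.92 (SE 0.243) with an adjusted p of 0.0552, and 0.96 with an adjusted p of 9.45e-06 with the replicate block. For shNR4A2 cells with LPS it was 0.53 (SE 0.324, adjusted p = 0.377), and 0.51 with an adjusted p of 1.03e-07 with the block. Without LPS, PLAU was higher in shNR4A3 cells (log2 fold change 0.47, SE 0.123, adjusted p = 0.0336), a call lost without any 1 of 5 libraries, all but shNT replicate 1 (adjusted p = 0.0522 to 0.140), and in a fit over all 18 libraries (adjusted p = 0.386).

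PLAUR was higher in shNR4A2 than in shNT cells in 3 of 3 replicates with and without LPS, with ratios of 1.38, 1.67 and 1.45 without LPS and 1.38, 1.59 and 1.36 with LPS. The log2 fold change was 0.58 (SE 0.161, adjusted p = 0.0574) without LPS and 0.59 (SE 0.267, adjusted p = 0.224) with LPS. With the replicate block the adjusted p was 8.32e-05 and 2.01e-09. Without LPS, PLAUR was also called by DESeq2 (adjusted p = 0.0129) and without shNT replicate 1 or shNR4A2 replicate 3 (adjusted p = 0.0202 and 0.0268). In shNR4A3 cells the ratios of PLAUR to shNT lay between 0.859 and 1.20, and the log2 fold change with LPS was 0.00 with an interval of -0.51 to 0.50. Between the knockdown lines PLAUR was higher in shNR4A2 cells with the block, by a log2 of 0.40 without LPS (adjusted p = 0.00649) and 0.57 with LPS (adjusted p = 7.06e-05), and not called without it (adjusted p = 0.134 and 0.260).

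SERPINB2 was higher in shNR4A3 than in shNT cells without LPS (log2 fold change 0.76, SE 0.170, adjusted p = 0.0161). The call was lost without shNT control replicate 1 or 2 or shNR4A3 control replicate 3 (adjusted p = 0.0547 to 0.0718). With LPS the SERPINB2 values of 2.76, 3.73 and 2.92 TPM lay above the 1.71, 2.43 and 1.87 TPM of shNT cells, with a log2 fold change of 0.70 (SE 0.232, adjusted p = 0.109, and 0.0474 with the block). In shNR4A2 cells the log2 fold change of SERPINB2 was 0.10 (-0.35 to 0.55) without LPS and 0.44 (-0.27 to 1.15) with LPS. The block also called SERPINB2 lower in shNR4A2 than in shNR4A3 cells without LPS (log2 difference -0.67, adjusted p = 0.00528).

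For THBS1 the fold change against shNT was negative without LPS and positive with LPS in both knockdown lines. The log2 fold change without LPS was -0.86 (SE 0.252, adjusted p = 0.0573) in shNR4A3 cells and -0.53 (SE 0.272, adjusted p = 0.300) in shNR4A2 cells. With the replicate block the adjusted p was 0.0270 and 0.0116. For shNR4A3 cells it was 0.0132 with DESeq2 and 0.0155 without shNT control replicate 2. With LPS the log2 fold change was 0.30 (SE 0.287, adjusted p = 0.570) and 0.57 (SE 0.291, adjusted p = 0.285), and with the block the adjusted p was 0.00421 and 8.16e-10. THBS1 groups of knockdown and shNT cells overlapped in each of these comparisons, but the direction was the same in 3 of 3 replicates in each.

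With the block, more of the genes also differed between the knockdown lines, 6 of 8 without LPS, against 11.6% of all genes, and 7 of 8 with LPS, against 23.6% of all genes. Of those not named so far, TFPI without LPS was higher in shNR4A2 cells (adjusted p = 0.00801) and PLAU was lower (adjusted p = 0.0355). With LPS, F3 (adjusted p = 7.40e-05) and THBS1 (adjusted p = 0.00557) were higher and PLAU (adjusted p = 0.00613) was lower in shNR4A2 cells.

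**Figure D4:**
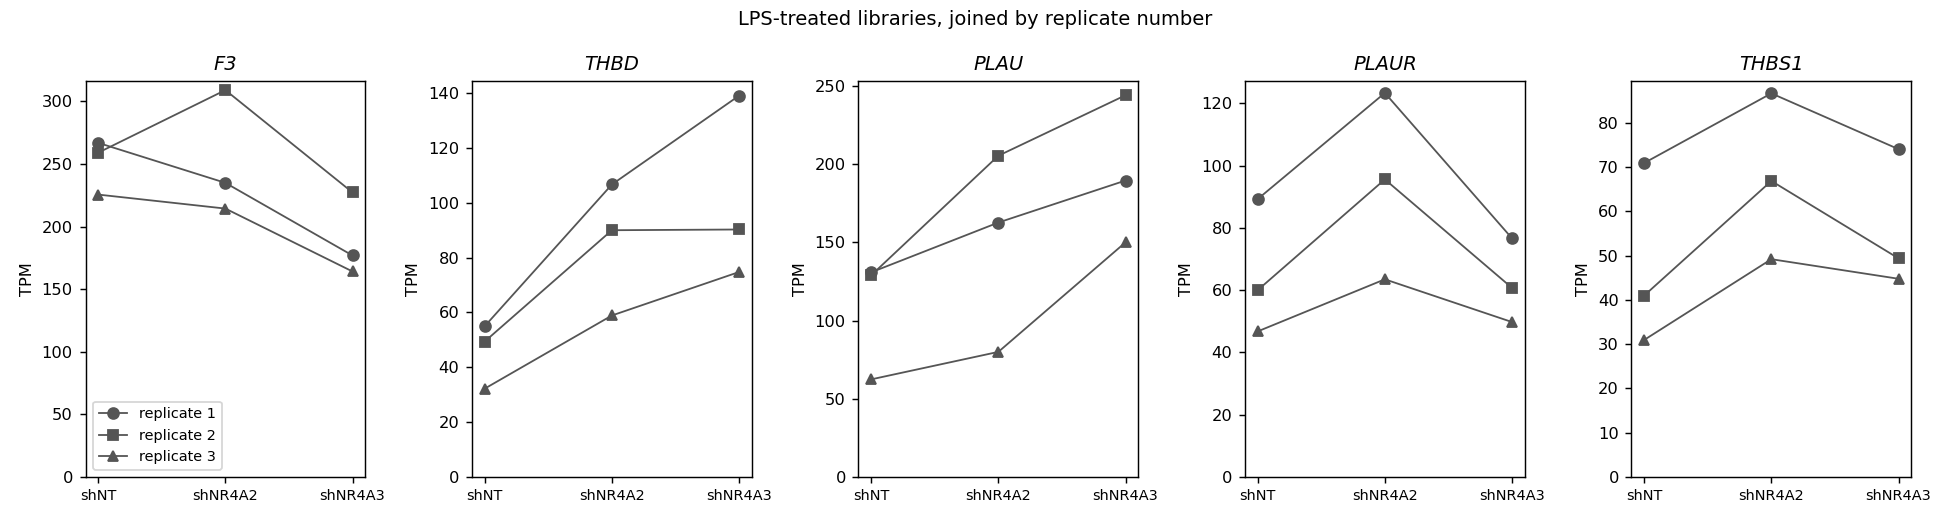
TPM (y axis, from 0) of 5 genes in the LPS-treated libraries of the 3 lines (x axis), with a line joining libraries of the same replicate number. THBD and PLAU were above shNT in both knockdown lines in each replicate, and PLAUR and THBS1 were highest in shNR4A2 cells in each replicate.

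Markers of other states moved with the knockdown lines. LYZ, a monocyte and macrophage lysozyme, was higher than in shNT cells by a log2 of 1.68 in shNR4A2 cells and 2.25 in shNR4A3 cells without LPS (adjusted p = 6.22e-05 and 6.72e-07). Of the 11 monocyte markers, 3 were higher in shNR4A2 cells and 5 in shNR4A3 cells without LPS, with 2 and 4 with LPS, beside 3.63%, 3.91%, 4.31% and 3.99% of all genes called higher in these comparisons. The macrophage and dendritic cell lectin CD209 was higher by a log2 of 1.91 and 1.29 without LPS and 2.11 and 1.54 with LPS. Of the macrophage markers tested, MSR1 was also higher in shNR4A2 cells without LPS (1.40) and in shNR4A3 cells with LPS (1.35), MARCO was higher in shNR4A2 cells with LPS (1.00), and APOE was lower in shNR4A3 cells with LPS (-1.09). The 6 macrophage markers summed to between 23.7 and 93.7 TPM over the libraries. Among endothelial markers, PECAM1, which monocytes also express, was the most abundant. PECAM1 was higher in shNR4A2 cells by a log2 of 0.63 without LPS and 0.70 with LPS, and was not called in shNR4A3 cells (0.29 and 0.36). KDR was lower in shNR4A2 cells without and with LPS (log2 fold changes -2.26 and -1.95) and in shNR4A3 cells without LPS (-2.64). The part of these markers in the differences of THBD, F3 and F13A1 was not tested.

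Other genes of coagulation and fibrinolysis were taken as 8 lists with 68 genes. With LPS, 8 of the 40 tested were higher and 3 lower in shNT cells, where 24.9% of all genes were called. In shNR4A2 cells 6 and 2 of 40 were, beside 19.3% of all genes, and in shNR4A3 cells 6 and 4 of 40, beside 28.1% of all genes, with median log2 fold changes of 0.07, 0.08 and 0.03 over the genes tested. SERPINE2, which encodes protease nexin 1, an inhibitor of thrombin and urokinase, went from 2.94, 2.46 and 2.74 TPM to 48.4, 33.5 and 60.2 TPM in shNT cells, with a log2 fold change of 4.35 (SE 0.208). The increase of SERPINE2 was 5.56 and 4.88 in the shNR4A2 and shNR4A3 lines. MMP1, the interstitial collagenase, rose by a log2 of 3.81, 3.42 and 3.15 in the shNT, shNR4A2 and shNR4A3 lines, from a level under 1 TPM. F8, coagulation factor VIII, rose by 1.47, 1.37 and 1.43. SERPIND1, the thrombin inhibitor heparin cofactor II, rose in shNT cells by a log2 of 1.99, and the thrombospondin gene THBS2 had log2 fold changes of -0.63, -0.87 and -1.09 in the shNT, shNR4A2 and shNR4A3 lines. PLAT, tissue plasminogen activator, was called in shNR4A2 cells (log2 fold change 1.62) at under 1 TPM.

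Against shNT, 7 pathway genes were higher and 1 lower of 38 tested in shNR4A2 cells without LPS, and 9 and 2 of 40 with LPS, beside 6.45% and 6.96% of all genes called. In shNR4A3 cells 6 were higher and 4 lower of 38 without LPS, and 4 and 4 of 40 with LPS, beside 7.23% and 6.45% of all genes. The medians of the log2 fold change over the genes tested were 0.09 and 0.13 in shNR4A2 cells and 0.08 and -0.01 in shNR4A3 cells. CD36, a receptor of thrombospondin 1, was higher by a log2 of 2.41 without and 2.43 with LPS in shNR4A3 cells, and by 1.29 and 1.16 in shNR4A2 cells. In the direct comparison of shNR4A2 with shNR4A3 cells the log2 difference of CD36 was -1.12 without LPS and -1.27 with LPS, and that of TGM2 was 1.18 and 1.23. Without LPS, GAS6 (-0.82), a ligand of the TAM receptors, and TIMP3 (0.69), an inhibitor of metalloproteinases, also differed between these lines. TGM2, transglutaminase 2, a crosslinking enzyme like factor XIII, had log2 fold changes of -0.95 without LPS and -0.96 with LPS in shNR4A3 cells, whereas F13A1 was higher there. A2M, the protease inhibitor alpha-2-macroglobulin, was higher in shNR4A2 cells by 1.04 without LPS and 1.22 with LPS, and in shNR4A3 cells by 0.67 without LPS. SERPINB8, an intracellular serine protease inhibitor, was higher in shNR4A3 cells by 0.93 without and 0.99 with LPS, and in shNR4A2 cells by 0.69 and 0.75. In shNR4A2 cells PROC (protein C) was higher without LPS by 1.40, and with LPS SERPINE2 was higher by 1.68 and MMP9 was lower (log2 fold change -1.19).

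**Figure D5:**
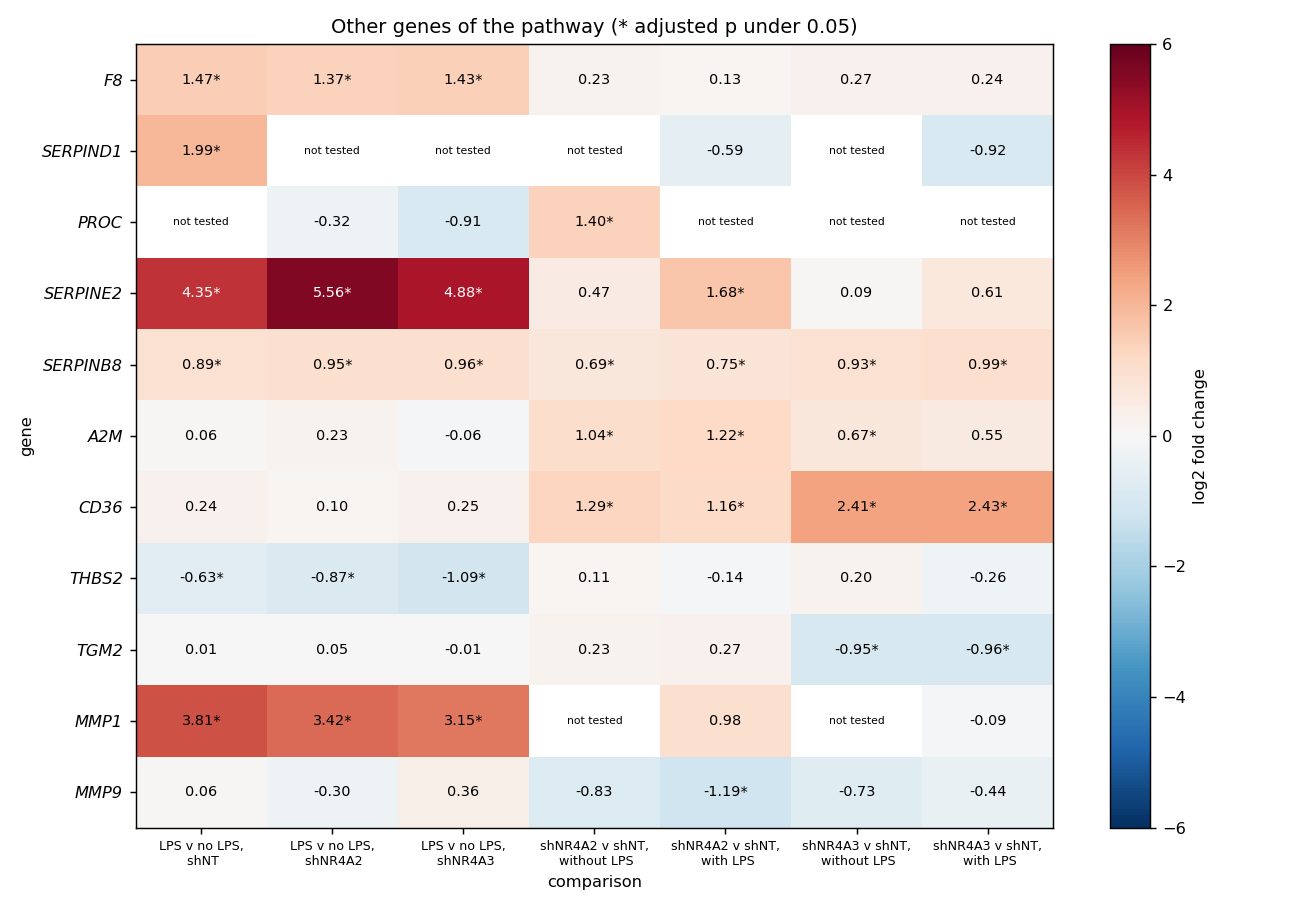
Log2 fold change (colour and number) of 11 pathway genes (rows) in the 3 LPS comparisons and the 4 knockdown comparisons (columns), with an asterisk at an adjusted p under 0.05. SERPINE2 rose with LPS in each line, and CD36 was higher in each knockdown comparison.

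Genes whose log2 CPM followed each gene most closely over the 18 libraries were listed by Pearson's r, as a description over libraries that share lines, treatment and replicate number. THBS1 ran closest to FCAR (r = 0.988), ZC3H12C (0.985) and CYLD (0.984). THBD ran closest to the chemokine receptor genes CCR1 (0.984) and CCR2 (0.963) with PDK4 (0.968) between them. PLAU ran closest to ITPRIP (0.975), C10orf55 (0.950), which shares bases with it, and ZFP36 (0.937). For SERPINB2 they were ZBTB18 (0.969), ERLIN1 (0.966) and PCED1B (0.966), and for F13A1 they were EMB (0.955), IGFBP7 (0.952) and PLAC8 (0.912). For F3 they were WWC2 (0.934), CHST11 (0.906) and NORAD (0.903). TFPI ran closest to PLOD2 (0.927), SLC44A1 (0.918) and TMEM87A (0.914), and PLAUR to PMEPA1 (0.936), METRNL (0.924) and HLA-B (0.912). Among the genes that passed the filter, SERPINB2 ran opposite to THBS1 (r = -0.929) and F3 (r = -0.894). THBD also ran opposite to THBS1 (r = -0.840) and F3 (r = -0.803), and F13A1 opposite to TFPI (r = -0.791).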

How the data were processed

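Polyadenylated RNA of 18 THP-1 libraries was sequenced as paired reads of 150 bases. Per the labels, the authors trimmed reads with Trimmomatic 0.36, aligned them with STAR 2.5.2b to GRCh38 and counted them per Ensembl gene with featureCounts of Subread 1.5.2, and deposited whole-number counts without normalization, with each gene's merged exon length. The annotation release and the strand setting are not given in the sources used here. Symbols of 56898 of the 57500 genes came from GENCODE 29, and no 2 libraries held identical counts. The 9 genes and the other gene lists were chosen with earlier results of these data known.

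Groups were compared with edgeR 4.0.16 in R 4.3.3 (filterByExpr, TMM, quasi-likelihood F test) on their own 6 libraries, or 12 for an interaction, with Benjamini-Hochberg adjustment over all genes tested. A gene was called at an adjusted p under 0.05. The procedure was tested on simulated data. An exact 2-sided permutation test of 3 libraries against 3 cannot give a p under 0.1. Depth limits small changes of genes with few counts, and a count of 0 allows up to 3 counts. Counting intervals cover counting error only.

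Replicate numbers come from the labels, which do not say that a number marks the same experiment in every group, and pairing was taken from the data. Residuals of libraries with the same number correlated above 0.1 in all 3 replicates (r = 0.159 to 0.533) in 8 of the 9 comparisons between 2 groups. In the comparison of LPS with control in shNT cells the lowest r was 0.0598, and in the interactions it was 0.0174 and 0.0266. As alternatives, each library was left out in turn, calls were limited to changes of at least 2-fold, replicate entered as a block, 1 fit took all 18 libraries, the low-count filter was dropped, RLE size factors replaced TMM, and DESeq2 1.42.0 replaced edgeR.

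The text names the 9 genes, the hairpin targets, in each comparison up to 4 called genes of the pathway lists with the largest absolute log2 fold change, for each of the 9 genes that passed the filter the 3 genes most like it by Pearson's r of log2 CPM (prior count 2), and markers that were called, abundant or near 0. Promoter motifs were searched in Python with RefSeq windows of 300 bases. 1 gene that this rule names is not reported here.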

Additional observations from a re-analysis of the deposited data

How the results depend on the processing

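All settings below were chosen with earlier results of these data known. With LPS in the 3 lines, the calls of THBS1, THBD, SERPINB2, PLAU and F3 were kept under each alternative and with each library left out, except that F3 and PLAU in shNT cells did not pass the 2-fold limit, and the replicate block changed no call of the 9 genes there. Counts of calls among the 9 genes moved by more than 1.5 times as follows. With the further 2-fold limit, 3 were called with LPS in shNT cells, 0 and 0 in shNR4A2 against shNT without and with LPS, 2 and 1 in shNR4A3 against shNT, and 0 and 0 in shNR4A2 against shNR4A3. Without the filter on low counts, 4 and 5 were called in shNR4A2 against shNT (4.21% and 4.57% of all genes), 5 in shNR4A3 against shNT with LPS (4.57%), 5 and 5 between the knockdown lines (2.19% and 2.8%), and 1 (THBS1) and 3 (F3, THBD and THBS1) in the interactions (0.0658% and 0.314%). With the replicate block, 4 and 4 were called in shNR4A2 against shNT, 7 in shNR4A3 against shNT with LPS, 6 and 7 between the knockdown lines and 1 in the interaction of LPS with shNR4A3 (F3, adjusted p = 0.0379). DESeq2 called 2 in shNR4A2 against shNT with LPS (8.2% of all genes) and 4 between the knockdown lines without LPS (4.21%). A fit over all 18 libraries called 1 in shNR4A2 against shNT without LPS (7.95% of all genes), and PLAU in shNR4A3 against shNT with LPS (adjusted p = 0.0402). Apart from the 2-fold limit and the number of libraries left, the cause was not tested.

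Over the libraries left out in turn, the number of the 9 genes called ran from 5 to 6, 5 to 7 and 5 to 6 with LPS in shNT, shNR4A2 and shNR4A3 cells. It ran from 0 to 2 in shNR4A2 against shNT without LPS and from 0 to 2 with LPS. It ran from 4 to 5 and from 2 to 4 in shNR4A3 against shNT, from 1 to 2 between the knockdown lines without LPS and was 1 with LPS.

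Signs also changed for values that were not called without the block. With the block, THBD and THBS1 between the knockdown lines with LPS were called. The log2 fold change of PLAUR in shNR4A3 against shNT with LPS was 0.0027 with RLE and 0.018 with the block, the interaction of PLAUR with shNR4A2 was -0.0016 with the block, and that of F13A1 with shNR4A3 was 0.0025 without the filter. With libraries left out, F13A1 ranged from -0.025 to 0.18 with LPS in shNT cells, from -0.0063 to 0.15 with LPS in shNR4A3 cells, from -0.082 to 0.059 in shNR4A2 against shNT without LPS and from -0.054 to 0.16 with LPS, and from -0.045 to 0.18 and from -0.10 to 0.11 in the interactions. PLAUR ranged from -0.22 to 0.30 in shNR4A3 against shNT with LPS and from -0.28 to 0.32 and from -0.38 to 0.12 in the interactions. SERPINB2 ranged from -0.029 to 0.30 in shNR4A2 against shNT without LPS and from -0.27 to 0.062 in the interaction with shNR4A3. F3 ranged from -0.056 to 0.15 in shNR4A2 against shNT with LPS. Between the knockdown lines with LPS, THBD ranged from -0.50 to 0.077 and THBS1 from -0.0047 to 0.55. TFPI ranged from -0.074 to 0.29 in the interaction with shNR4A3.

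Over all genes, the replicate block raised the number called from 3050 to 4751 with LPS in shNR4A2 cells, from 1019 to 3733 and from 1085 to 4385 in shNR4A2 against shNT without and with LPS, from 1108 to 2267 and from 1005 to 3401 in shNR4A3 against shNT, from 480 to 1800 and from 362 to 3666 between the knockdown lines, and from 0 to 8 and 22 in the interactions. Without the filter these numbers were 1611, 1843, 1839 (shNR4A3 with LPS), 838, 1102, 29 and 138. A fit over all 18 libraries gave 4601 with LPS in shNR4A2 cells, 1691 in shNR4A2 against shNT with LPS and 1032 between the knockdown lines with LPS, where DESeq2 gave 698. With the 2-fold limit, 1188, 1382 and 1574 of 3909, 3050 and 4312 genes were called with LPS, 344 and 388 in shNR4A2 against shNT, 282 and 350 in shNR4A3 against shNT and 214 and 149 between the knockdown lines. With libraries left out, the lowest and highest numbers were 517 and 1128, 342 and 1477, 649 and 975, 383 and 1693, 249 and 470, and 94 and 217 in the 6 comparisons between lines, in the order used above. Depth limits TFPI2, with at most 17 counts in a library, most of the 9 genes.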
